A study of Mus musculus with 15 samples.

Results

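Tumours that carried both engineered changes, loss of Atrx and the histone mutant H3.3G34R, were compared with tumours that carried neither. They account for 8 of the 15 RNA libraries of the study, 4 with both changes and 4 with neither, and were taken as the groups that the authors compared in a table of their own. All 8 were brain tumours of C57BL/6 mice with the genotype Nestin Tv-a; p53 fl/fl, in which the Nestin promoter drives the avian virus receptor Tv-a in neural progenitors. Chicken DF-1 cells carrying RCAS-Cre, RCAS-PDGFA and 1 of the histone vectors were injected into the cortex, and tumour was taken from the frontal cortex at a functional end point. Floxed p53, Cre and the growth factor PDGFA were therefore common to the 2 groups. Tumours with both changes (both in the plots) grew in mice that were also ATRX fl/fl and received RCAS-H3.3G34R-GFP. Tumours with neither (neither in the plots) grew in mice with intact Atrx and received RCAS-H3.3WT-GFP. The study also had tumours with 1 change each, 4 with Atrx floxed and H3.3WT (Atrx fl only in the plots) and 3 with Atrx intact and H3.3G34R (G34R only in the plots). Age and sex are not among the labels used here, and no label ties each library to a mouse of its own, so p-values measure how far these libraries vary. Atrx loss always came with the floxed line, so effects of the deletion and of the line's genetic background cannot be told apart, and within these 8 libraries neither can the 2 changes.

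ATRX is a chromatin remodeller that, with its partner DAXX, places the histone variant H3.3 in heterochromatin, at telomeres and over silenced repeats. The G34R substitution in H3.3 is found in gliomas of the cerebral hemispheres in children and young adults, often together with mutations of ATRX, and it disturbs methylation of the nearby lysine K36. According to its title, the study concerned cooperation of the 2 changes in upregulating genes under Polycomb (PRC2), activating Notch and promoting a neuronal lineage. PRC2 methylates H3 at lysine K27 over silent developmental regulators such as the Hox genes. Notch receptors are activated by ligands on neighbouring cells, are cut by gamma-secretase and then act with RBPJ on target genes such as Hes1. DLL3 differs from the other ligands in that it stays largely inside the cell and inhibits Notch there.

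Selenov, the one protein-coding gene that passed the test of all genes, lies on chromosome 7 close to Dll3 and Eid2, whose groups also did not overlap, and the promoters of the 3 are shown for that reason. Each sequence is the 250 bases before the annotated start, from RefSeq on GRCm38.p6, written 5′ to 3′ in the direction of the gene. Selenov lies on the minus strand (chr7:28291187-28291436), Dll3 on the minus strand (chr7:28301786-28302035) and Eid2 on the plus strand (chr7:28267631-28267880). In the GENCODE annotation that gave the gene positions below, Dll3 begins further upstream, so its window lies inside that gene. The Selenov and Eid2 windows end where the GENCODE genes begin. Capitals mark matches on either strand to CANNTG, the E-box bound by neuronal and other basic helix-loop-helix factors, and to TGGGAA, the core bound by the Notch factor RBPJ.
Selenov: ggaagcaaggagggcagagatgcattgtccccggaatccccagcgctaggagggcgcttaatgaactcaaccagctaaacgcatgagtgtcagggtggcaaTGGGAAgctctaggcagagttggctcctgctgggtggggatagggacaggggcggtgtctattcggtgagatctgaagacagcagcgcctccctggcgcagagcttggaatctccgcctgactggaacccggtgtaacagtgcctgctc
Dll3: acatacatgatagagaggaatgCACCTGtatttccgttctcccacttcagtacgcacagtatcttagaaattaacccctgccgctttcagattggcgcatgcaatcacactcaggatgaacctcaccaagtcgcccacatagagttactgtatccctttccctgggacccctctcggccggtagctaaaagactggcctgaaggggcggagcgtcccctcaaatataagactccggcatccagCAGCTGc
Eid2: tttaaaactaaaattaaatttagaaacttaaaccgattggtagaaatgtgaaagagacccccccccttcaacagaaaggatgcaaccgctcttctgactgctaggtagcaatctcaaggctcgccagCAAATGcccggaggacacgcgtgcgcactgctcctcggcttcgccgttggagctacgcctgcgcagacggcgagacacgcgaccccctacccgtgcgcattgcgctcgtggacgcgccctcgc
The Dll3 window held 2 matches to CANNTG, of which 1 was CAGCTG, and the Eid2 window held 1, while the Selenov window held 1 match to TGGGAA and 0 to CANNTG. Over 32851 promoter windows of the same length, 66.2% held CANNTG, 13.0% held CAGCTG (a form of CANNTG) and 21.6% held TGGGAA. The Selenov and Dll3 windows each had 10 CG pairs and the Eid2 window 23, against a median of 6 over all windows. A match is a description of the letters only.

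Reads in genes numbered 22807315 to 27495222 per library with both changes and 24979735 to 35679129 per library with neither. Values below are normalized read counts, that is, reads divided by a size factor for each library, and values of single libraries are given in the order of replicates 1 to 4. Library pairs within a group differed far beyond counting noise (chi-square per degree of freedom 89.8 to 663.2), so none is another library of its group sequenced again. This cannot show that the libraries came from separate tumours or mice. The defining markers of oligodendrocyte progenitors were high in 7 of the 8 libraries, with Pdgfra at 50298 to 129600 and Sox10 at 24852 to 42464. Replicate 3 with neither change stood apart at 5234 for Pdgfra and 2411 for Sox10, and it held 36337 of Snap25, a synaptic gene, and 16682 of the myelin gene Mobp, against at most 3229 and 13064 elsewhere. The library with 3229 of Snap25 and 13064 of Mobp was replicate 3 with both changes. Replicate 3 of each group is called rich in cortex transcripts below, but the 2 were not alike. Summed myelin genes were at 126725 in replicate 3 with both changes and at 134192 in replicate 3 with neither. Summed synapse genes were at 101848 and 584662, and dorsal forebrain genes at 12821 and 67230. Replicate 3 with both changes kept Pdgfra at 109450 and Sox10 at 25067. Xist was at least 14113 in replicate 3 with both changes and in replicates 1, 3 and 4 with neither, and at most 26.8 in the other 4 libraries. High Xist was therefore spread unevenly over the 2 groups. In bulk tissue, fewer cells of a type and less RNA per cell cannot be told apart.

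Atrx (ENSMUSG00000031229; mm10 chromosome X, 105797615 to 105929403) checked the labels. It stood at 1872, 2774, 2926 and 1301 in tumours with both changes and at 8318, 6248, 4920 and 7534 in tumours with neither, without overlap. The means were 2218 ± 768 and 6755 ± 1491 (SD, n = 4 each), so floxed tumours averaged 32.8% of intact ones. On the log2 scale the groups differed by -1.65 (SE 0.32), with an exact permutation p of 0.0286 (2-sided), the smallest that the 70 assignments allow. The labels do not name the exons removed, and the counts cover the whole gene. H3f3a had a log2 difference of 0.04, H3f3b 0.47 and Pdgfa 1.09, and none of the 3 passed in limma (adjusted p = 0.999 for each). H3f3a and H3f3b are the 2 mouse genes for H3.3, and how far reads from the vectors were counted in H3f3a, H3f3b or Pdgfa is not given in the sources used here.

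Across the genome 4 genes passed, and 3 of the 4 were annotated as processed pseudogenes. Of 17659 genes with a mean of at least 10, limma called 4 (0.0227%), with p-values adjusted by Benjamini and Hochberg and a threshold of 0.05. Gm13394, Tdpx-ps1 and Selenov rose in tumours with both changes and Gm11942 fell. At an unadjusted p under 0.05 there were 480 genes with a higher level (2.72%) and 292 with a lower level (1.65%). The 2 groups did not overlap for 277 genes that were higher (1.57%) and 243 that were lower (1.38%). The edgeR quasi-likelihood test on the recovered reads called 2 genes, Gm13394 and Gm11942. DESeq2 called 75 (44 higher, 31 lower), and the authors' deposited table holds 77 of 20272 genes past the same threshold (0.380%), 45 higher and 32 lower. The number called by limma was 2 without replicate 1, 2 or 3 of the tumours with both changes and without replicate 2 or 4 of those with neither. It was 8 without replicate 3 of the tumours with neither, the library rich in cortex transcripts, where Strc, Mmp2, Gm5141 and Dll3 also passed.

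**Figure D1:**
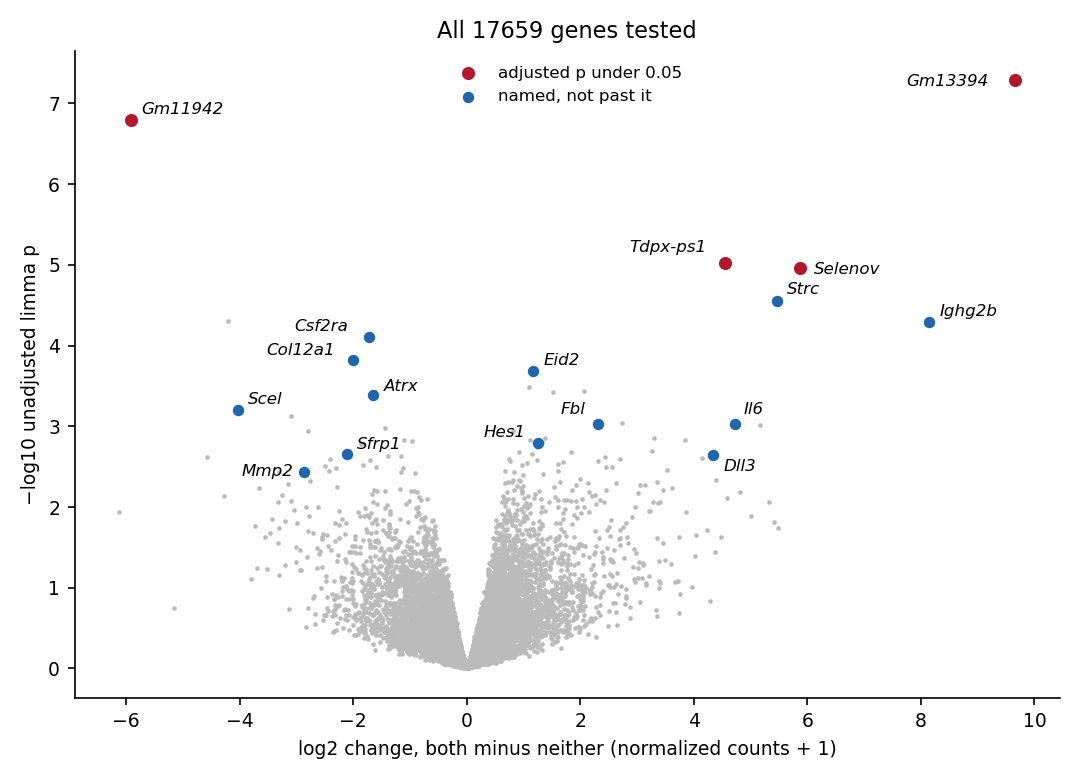
Each point is 1 of the 17659 genes tested, with the log2 difference of both changes minus neither on the horizontal axis and -log10 of the limma p-value on the vertical axis. The 4 genes past the adjusted threshold are Gm13394, Tdpx-ps1 and Selenov on the right and Gm11942 on the left.

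Selenov (ENSMUSG00000046750; chromosome 7, 28284652 to 28291186) encodes a selenoprotein known mainly from testis. Its level was 518, 402, 991 and 1034 in tumours with both changes and 2.11, 22.6, 14.7 and 15.1 in tumours with neither. The means were 736 ± 323 and 13.6 ± 8.49 (SD, n = 4 each), a log2 difference of 5.87 (SE 0.67; limma adjusted p = 0.0483). Every tumour with both changes was therefore above every tumour with neither. The gene was called in 7 of 20 alternatives. Leaving out 1 library at a time kept the log2 difference between 5.23 and 6.2 but kept the call in 2 of 8 cases, those without replicate 1 or replicate 3 of the tumours with neither. Replicates 1 and 4 with both changes share the first code of their titles, as do replicates 3 and 4 with neither, and what the code stands for is not given in the sources used here. With the libraries of each shared code summed, limma called 2 genes, Gm13394 and Gm11942, and neither Selenov nor Tdpx-ps1. The same 2 genes were called with log2 Xist as a covariate, where Selenov and Tdpx-ps1 each had a limma adjusted p of 0.343.

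Gm13394 and Gm11942 had the smallest p-values of all genes tested. Gm13394 (ENSMUSG00000083773; chromosome 2, 28933610 to 28934609) was at 1869, 1684, 1839 and 3531 with both changes and at 0, 1.03, 4.91 and 3.02 with neither, a log2 difference of 9.66 (SE 0.59; limma adjusted p = 0.000908). Gm11942 (chromosome 4, 32964888 to 32965232) was at 7.56, 6.92, 4.76 and 8.16 with both changes and at 371, 769, 523 and 318 with neither, a log2 difference of -5.92 (SE 0.41; limma adjusted p = 0.00143). Both passed in each of the 20 alternatives. Tdpx-ps1 (chromosome 1, 99790429 to 99791025) was at 53.9, 137, 98.2 and 82.8 with both changes and at 4.23, 4.11, 1.64 and 2.01 with neither. Its log2 difference was 4.55 (SE 0.51; limma adjusted p = 0.0483), and it passed in 6 of 20 alternatives and in 1 of the 8 that left out a library, the one without replicate 3 of the tumours with neither.

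A processed pseudogene is a copy of a messenger RNA set back into the genome, and its reads can be hard to separate from those of its parent gene. The following comparison with parent genes was chosen after their values were seen. Gm13394 aligned over 1000 bases to a transcript of Gapdh, a glycolysis enzyme gene, with 99.9% identity. Gapdh itself was at 482, 369, 324 and 437 with both changes and at 215, 409, 392 and 244 with neither, a log2 difference of 0.39 (SE 0.31; limma adjusted p = 0.999). Tdpx-ps1 aligned to Prdx2, a peroxiredoxin gene, with 96.3% identity, and Prdx2 had a log2 difference of 0.23 (SE 0.23). Gm11942 aligned to Gm10073 with 97.7% identity and to the ribosomal gene Rplp1 with 97.4%, and these had log2 differences of 1.37 (SE 0.60) and -0.18 (SE 0.38). The counts assigned to the parents thus overlapped between the groups while those of the copies did not. In each tumour with both changes Gapdh had fewer counts than Gm13394, so its counts need not measure the full level of the parent. Together limma and the authors' deposited table called 12 pseudogenes, each aligned over at least 50% of its length to a gene that is no pseudogene, with 82.3% to 99.9% identity. Gapdh was the closest gene for 4 of the 12, and of these Gm13394 was higher while Gm4691, Gm12070 and Gm15191 were lower in the authors' deposited table. How reads that fit several places were counted is not given in the sources used here, so values of these copies and of their parents are uncertain.

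**Figure D2:**
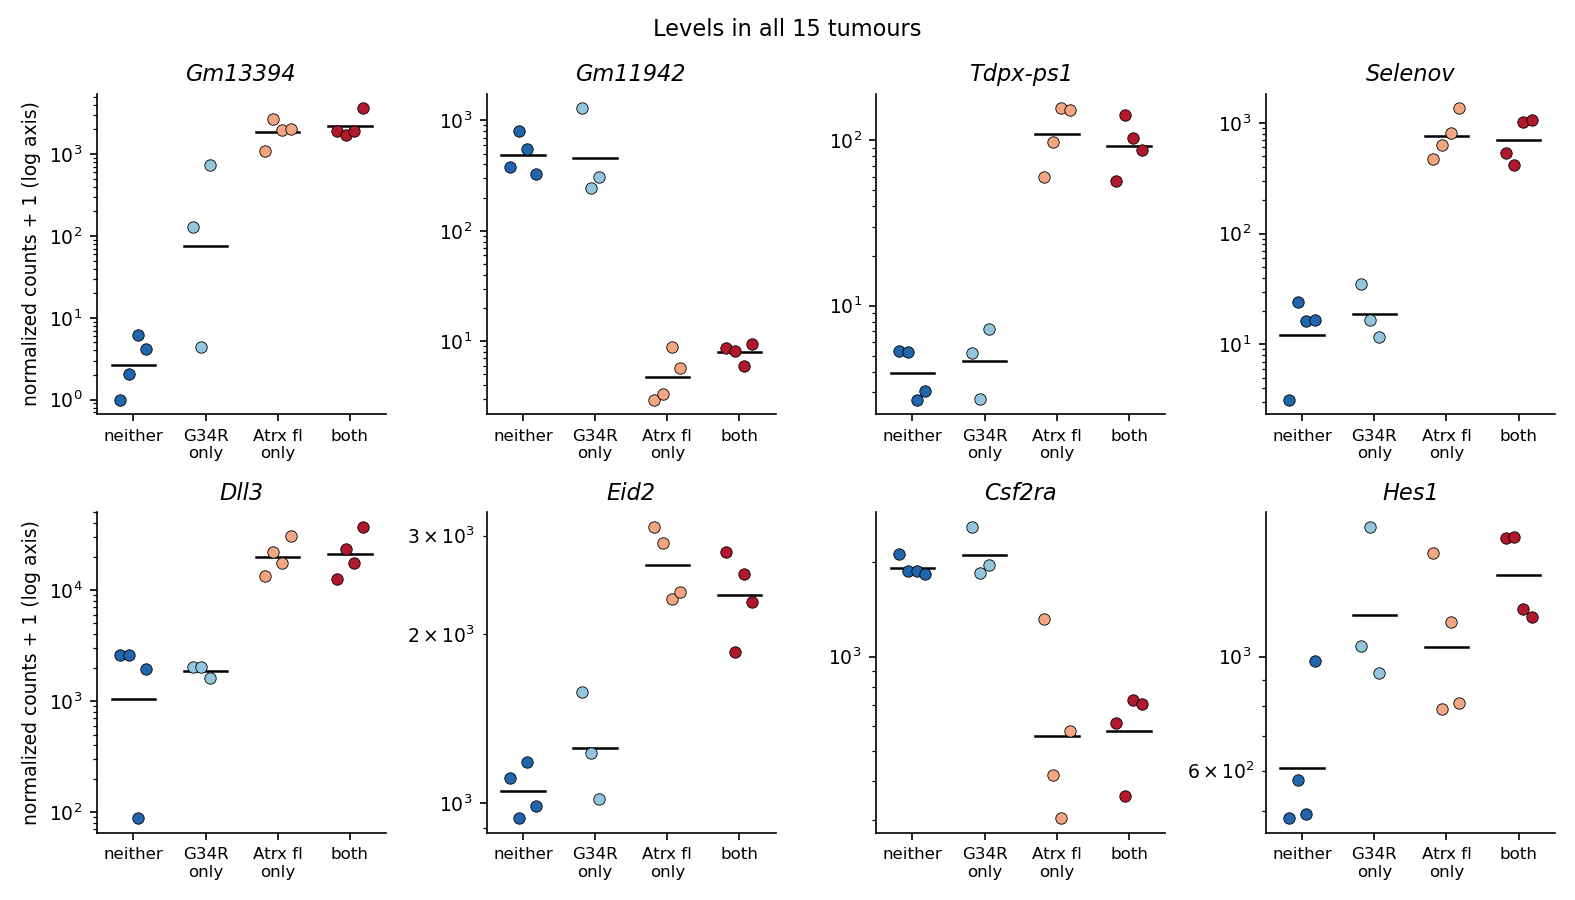
Normalized read counts plus 1 of 8 genes on a log axis, with 1 point per library, all 15 libraries scaled together and 1 column per group (n = 4, or 3 with H3.3G34R only). Black lines are geometric means of the value plus 1. Selenov, Dll3, Tdpx-ps1 and Eid2 are high and Gm11942 is low in each library with Atrx floxed, whichever histone was delivered.

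Selenov stands next to Dll3, the inhibitory Notch ligand. Both are on the minus strand, with 2.37 kb between them. Dll3 (ENSMUSG00000003436; chromosome 7, 28293553 to 28302238) was at 12346, 22961, 16926 and 36090 with both changes and at 2552, 2514, 83.4 and 1878 with neither. The groups did not overlap, with means of 22081 ± 10302 and 1757 ± 1158 (SD, n = 4 each). The log2 difference was 4.34 (SE 1.03) and did not pass in limma (adjusted p = 0.923). Without replicate 3 of the tumours with neither, which held 83.4, it was 3.15 and passed (limma adjusted p = 0.0382), and the adjusted p ran from 0.00305 in DESeq2 to 1.0 over the 16 alternatives in which single genes were followed (all but the mean of at least 50, limma-voom, the fit of 15 libraries and the summed title codes). The authors' deposited table holds Dll3 among its higher genes.

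The neighbourhood of Dll3 was examined because Dll3 and Selenov had been seen to be high, so counts over it describe these libraries and test nothing. Within 300 kb on either side, 36 genes are annotated and 22 were tested. Of the 22, 9 had an unadjusted p under 0.05, all 9 of them higher with both changes (2.72% of all genes tested), and 6 of them did not overlap between the groups (1.57% of all genes tested). Without Dll3 and Selenov these were 7 and 4 of 20, and the median log2 difference of the 20 was 0.57. Among those 20, 9530053A07Rik and Gm45011 had a mean under 10 with neither change and passed the filter only through the tumours with both. Eid2, an inhibitor of differentiation that binds the acetyltransferase EP300, was at 2731, 1809, 2472 and 2206 with both changes and at 1076, 905, 1128 and 956 with neither, a log2 difference of 1.17 (SE 0.20; limma adjusted p = 0.364). Fbl, the methyltransferase of the nucleolus, was at 855, 1001, 893 and 1974 against 214, 351, 91.6 and 351, a log2 difference of 2.31 (SE 0.48; limma adjusted p = 0.815). The groups did not overlap for Eid2, Fbl, Selenov, Dll3, 9530053A07Rik and Gm45011. Nccrp1, at a log2 difference of 3.28 (SE 0.98), and Zfp36, at 1.41 (SE 0.53), overlapped between the groups. Eid2b was at -0.35 (SE 0.33), Timm50 at 0.20 (SE 0.36) and Supt5 at 0.19 (SE 0.18). In the authors' deposited table the called genes 9530053A07Rik, Fbl, Gm45011, Eid2, Selenov, Dll3 and Nccrp1 fall within 417.8 kb, all 7 higher, and the other runs of called genes there held 2 genes each.

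**Figure D3:**
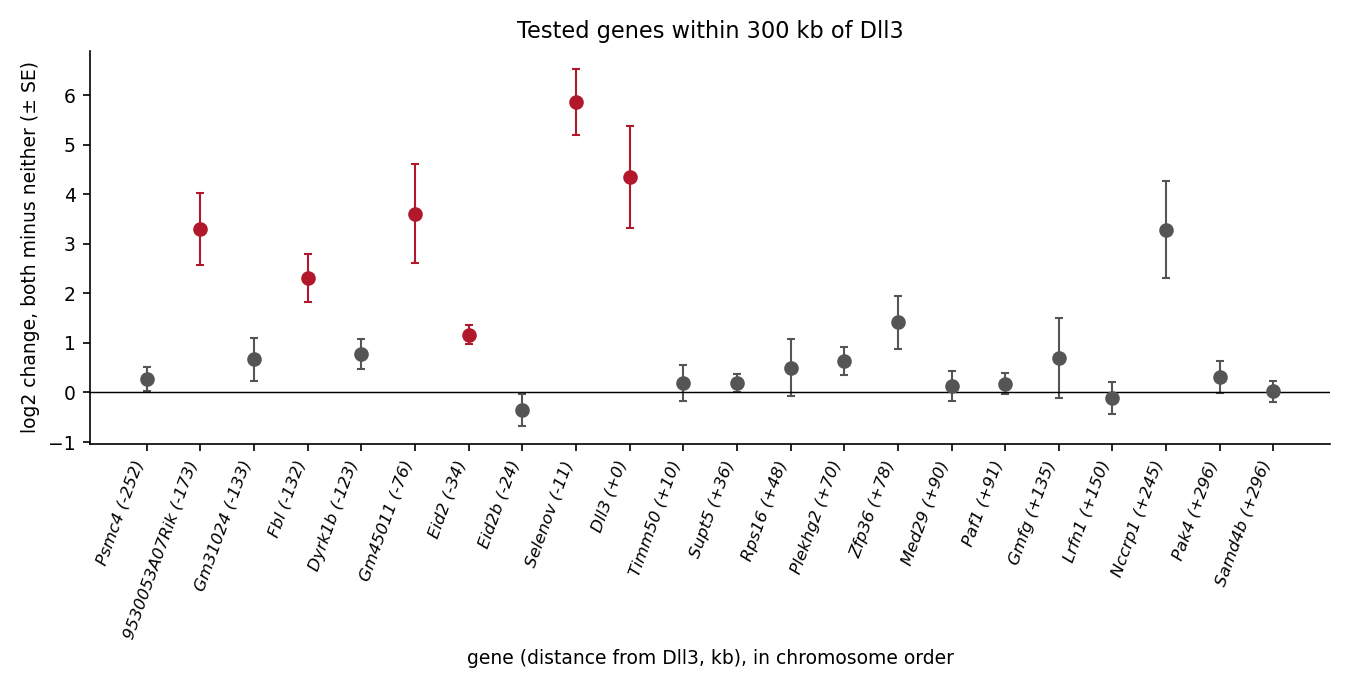
Log2 difference of both changes minus neither (vertical axis, bars are SE) for the 22 tested genes within 300 kb of Dll3, in chromosome order on the horizontal axis with the distance from Dll3 in kb. Red points are the 6 genes whose groups did not overlap, with Selenov at 5.87 and Dll3 at 4.34.

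Other protein-coding genes separated the groups without passing in limma. Strc, which encodes stereocilin of the inner ear, was at 782, 1236, 408 and 239 with both changes and at 7.39, 7.18, 40.1 and 8.05 with neither, a log2 difference of 5.46 (SE 0.70; limma adjusted p = 0.0977). It passed without replicate 3 of the tumours with neither (limma adjusted p = 0.0184), and the range over those 16 alternatives was 5.32e-10 to 0.552. Csf2ra, a receptor subunit for the myeloid growth factor GM-CSF, was at 596, 349, 699 and 683 against 2065, 1808, 1793 and 1782, a log2 difference of -1.73 (SE 0.26; limma adjusted p = 0.175). Gpx3, a secreted glutathione peroxidase, was at 3512, 4169, 3412 and 3672 against 1711, 2180, 1366 and 1702, a log2 difference of 1.10 (SE 0.20; limma adjusted p = 0.473). For these 3 genes every library of one group lay beyond every library of the other.

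Col12a1, Mmp2, Sfrp1, Smad9 and Scel were lower in every tumour with both changes than in any tumour with neither, and Smoc1 was higher. Col12a1, a collagen of the fibril surface, was at 293, 255, 155 and 156 against 632, 699, 1001 and 1061, a log2 difference of -2.0 (SE 0.32; limma adjusted p = 0.292). Mmp2, a gelatinase, was at 314, 316, 152 and 307 against 4172, 4193, 362 and 2043, a log2 difference of -2.86 (SE 0.74; limma adjusted p = 0.927). Mmp2 passed without replicate 3 of the tumours with neither, at -3.65 (limma adjusted p = 0.0248; range over the same 16 alternatives 0.000826 to 1.0). Sfrp1, a secreted inhibitor of Wnt signals, had a log2 difference of -2.12 (SE 0.50), Smad9, a transducer of BMP signals, -1.11 (SE 0.25), and Scel, which encodes sciellin of the epithelial cell envelope, -4.03 (SE 0.79). None of the 3 passed in limma (adjusted p = 0.923, 0.884 and 0.695). Smoc1, a secreted matrix protein that modulates BMP signals, was at 5050, 4476, 4010 and 3523 against 1787, 1513, 967 and 2661, a log2 difference of 1.38 (SE 0.30; limma adjusted p = 0.884).

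Il6, Il1b and Ighg2b were higher in every tumour with both changes than in any tumour with neither, and DESeq2 called Il6 and Il1b. Il6, a cytokine, was at 214, 350.1, 19.1 and 281 with both changes and at 1.06, 3.08, 8.18 and 10.1 with neither, a log2 difference of 4.73 (SE 0.98; limma adjusted p = 0.815). Il1b, another cytokine, was at 369, 323, 135 and 764 against 47.5, 4.11, 17.2 and 64.4, a log2 difference of 3.84 (SE 0.85; limma adjusted p = 0.884). Ighg2b, an immunoglobulin heavy chain, was at 347, 464, 461 and 12848 against 1.06, 6.16, 4.09 and 1.01, a log2 difference of 8.14 (SE 1.13; limma adjusted p = 0.129). It passed without replicate 4 of the tumours with both changes, at 6.91 (limma adjusted p = 0.0223; range over those of the 16 that gave one 0.0223 to 0.761). Jchain, which joins immunoglobulin chains in plasma cells, was at 107, 117, 329 and 5988 against 22.2, 20.5, 22.9 and 10.1, a log2 difference of 4.38 (SE 1.17). Replicate 4 with both changes thus held most of the immunoglobulin reads. Igkv3-1 was at 0, 30.7, 0 and 379 with both changes and at 0 in all 4 tumours with neither. Of the 20 lymphocyte and plasma cell genes listed, 16 were tested, 13 of them positive with a median of 1.22, and 2 had an unadjusted p under 0.05, both higher (2.72% of all genes tested). Their summed level ran from 374 to 6899 with both changes and from 222 to 799 with neither, and Cd3e, which marks T cells, was at most 29.5 in any library. Their part in the results was not tested.

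Notch genes were described by role. Among 10 ligands, all tested, 8 had a positive log2 difference and the median was 0.55. Dll3 and Dlk1 had an unadjusted p under 0.05, both higher (2.72% of all genes tested). The authors' deposited table called Dll3. Neither limma nor edgeR called a member of any list described here. Dlk1, a non-canonical ligand and imprinted gene, was at 1172, 1245, 1075 and 2607 against 43.3, 958, 237 and 635, a log2 difference of 2.33 (SE 0.86; limma adjusted p = 0.999). The canonical ligands Dll1, Jag1 and Dll4 had log2 differences of 0.17 (SE 0.84), 0.40 (SE 0.57) and 0.84 (SE 0.47). The ligand median was 0.17 without replicate 3 of the tumours with neither. Of 21 receptors and processing genes, 13 were positive and the median was 0.17. Notch2 was at 359, 689, 856 and 620.4 against 733, 1880, 1475 and 1024, a log2 difference of -0.995 (SE 0.37). Notch2 overlapped between the groups, and Notch1 gave -0.23 (SE 0.42).

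The nuclear factors and targets of Notch showed 1 gene apart. Of 16 listed, 15 were tested, 9 were positive and the median was 0.04. Hes1, the repressor that Notch switches on in progenitors, was at 1652, 1662, 1196 and 1153 with both changes and at 471, 554, 472 and 949 with neither. The groups did not overlap, and the log2 difference was 1.25 (SE 0.28; limma adjusted p = 0.887). Other targets overlapped, with Hey1 at a log2 difference of -0.19 (SE 0.22), Hes5 at -0.19 (SE 0.78) and Nrarp at -0.30 (SE 0.61). The factor Rbpj was at 0.52 (SE 0.27), and Snw1, which binds the Notch complex, at 0.57 (SE 0.23). The unadjusted p was under 0.05 for Hes1 and Snw1 only, 2 of 15, both higher, where 2.72% of all genes tested reached it on that side.

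Hox genes set the position of cells along the hindbrain and spinal cord and are normally silent in the forebrain. Of 39 listed, 9 were tested. A gene that reaches a mean of 10 only through the group where it is high has to differ, so counts over those 9 are a description. All 9 had a positive log2 difference, with a median of 3.09, and 3 had an unadjusted p under 0.05, all higher (2.72% of all genes tested). Of the 30 not tested, 13 had no read, 9 had a higher mean with both changes and 8 a lower one. Hoxa5 was at 673, 784, 469.8 and 873 with both changes and at 13.7, 1192, 0 and 66.5 with neither, a log2 difference of 4.37 (SE 1.78; limma adjusted p = 0.999). Hoxa7 was at 448, 624, 119 and 1236 against 1.06, 601, 0 and 9.06, a log2 difference of 5.42 (SE 1.81). Hoxa3 was at 727, 623, 501 and 1139 against 32.7, 1098, 8.18 and 69.5, a log2 difference of 3.35 (SE 1.23). In each of the 3, replicate 2 of the tumours with neither lay within or above the range of the tumours with both changes and the other 3 lay below it, so the groups overlapped. The summed level of the listed Hox genes was 2503, 2545, 1629 and 4659 with both changes and 171, 4089, 20 and 405 with neither. The median of tested Hox genes was 2.20 without the 2 libraries rich in cortex transcripts, and 0.54 with no filter on low values. Hoxb2 was at 96.8 in replicate 4 with both changes and at 0 in the other 7 libraries, at least 8.07-fold higher in the group mean against a floor of 3 counts per library, a value that rests on that library.

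Developmental regulators bound by PRC2, other than Hox genes, were mixed. Of 122 listed, 74 were tested, 50 with a positive log2 difference and a median of 0.50. As with the Hox genes, a member can pass the filter only through the group where it is high, as Fgf8 did, so these counts are a description. An unadjusted p under 0.05 was reached by 5 higher and 3 lower members, against 2.72% and 1.65% of all genes tested, limma called 0, and the authors' deposited table called 2, both lower. Of the 48 not tested, 4 had no read, 21 had a higher and 23 a lower mean with both changes. Gdnf, a growth factor for neurons, was at 345, 716, 303 and 1170 against 177, 92.4, 39.2 and 249, a log2 difference of 2.26 (SE 0.65; limma adjusted p = 0.996). Fgf8, a signal of brain organizers, gave 2.71 (SE 0.95) at 11.7 to 34 counts against 0 to 8.45. Otx1, a forebrain regulator, was at 1.89, 0.989, 14.3 and 3.5 against 104, 42.1, 198 and 5.03, a log2 difference of -3.43 (SE 1.13), and Tbx4 gave -2.32 (SE 0.78). The groups did not overlap for Gdnf and Fgf8. The median was 0.06 with edgeR and 0.05 with DESeq2, and 0.29 without replicate 3 of the tumours with neither. For the 33 tested subunits of the Polycomb complexes and H3K27 demethylases, 18 were positive, the median was 0.05 and 0 had an unadjusted p under 0.05.

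**Figure D4:**
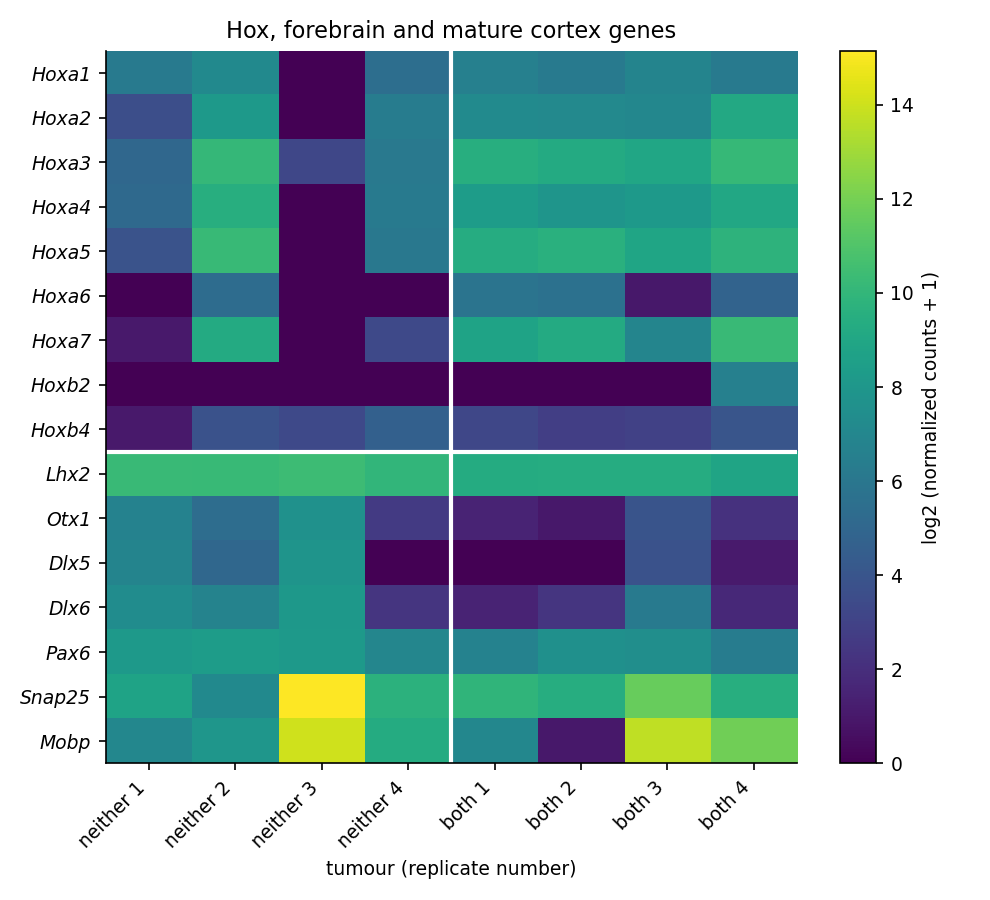
Heat map of log2 (normalized read count + 1) for the 9 tested Hox genes, 5 forebrain genes and 2 genes of mature cortex (rows) in the 8 libraries (columns). Hoxa2 to Hoxa7 are lower in replicates 1, 3 and 4 with neither change than in any tumour with both, while replicate 2 with neither is within or above their range.

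Neuronal lineage genes did not move one way. Of 49 fate and differentiation genes, 42 were tested, 24 were positive and the median was 0.11, with 2 higher and 1 lower at an unadjusted p under 0.05, against 2.72% and 1.65% of all genes tested. Without the 2 libraries rich in cortex transcripts 25 of 39 were positive and the median was 0.47. Ebf2, a factor of differentiating neurons, was at 21.7, 40.5, 46.7 and 9.33 against 1.06, 6.16, 0.818 and 1.01, a log2 difference of 3.27 (SE 0.77; limma adjusted p = 0.923), and the authors' deposited table called it. Sox11, a factor of immature neurons, was at 6600, 5535, 2774 and 4865 against 1831, 3251, 1171 and 3732, a log2 difference of 1.06 (SE 0.42). Insm1, a factor of neuronal progenitors, gave -2.14 (SE 0.77), and Sox11 and Insm1 overlapped between the groups. Of 40 synapse genes of mature neurons, 8 were positive with a median of -0.40, and their summed level ran from 36286 to 101848 with both changes and from 33773 to 584662 with neither. Without the 2 libraries rich in cortex transcripts 24 of the 40 were positive and the median was 0.13.

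Dorsal forebrain genes mark the cortex from which the tumours were taken, and their differences were mostly negative. Of 18 listed, 17 were tested, 1 was positive and the median was -1.29. At an unadjusted p under 0.05 there were 2 lower (1.65% of all genes tested), and limma called 0. Without the 2 libraries rich in cortex transcripts the median was -0.67 and 2 of 12 were positive. Lhx2, a cortical selector gene, was at 641, 674, 673 and 458 against 1248, 1170, 1320 and 999.8, without overlap, a log2 difference of -0.96 (SE 0.21; limma adjusted p = 0.884). The authors' deposited table called Lhx2.

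**Figure D5:**
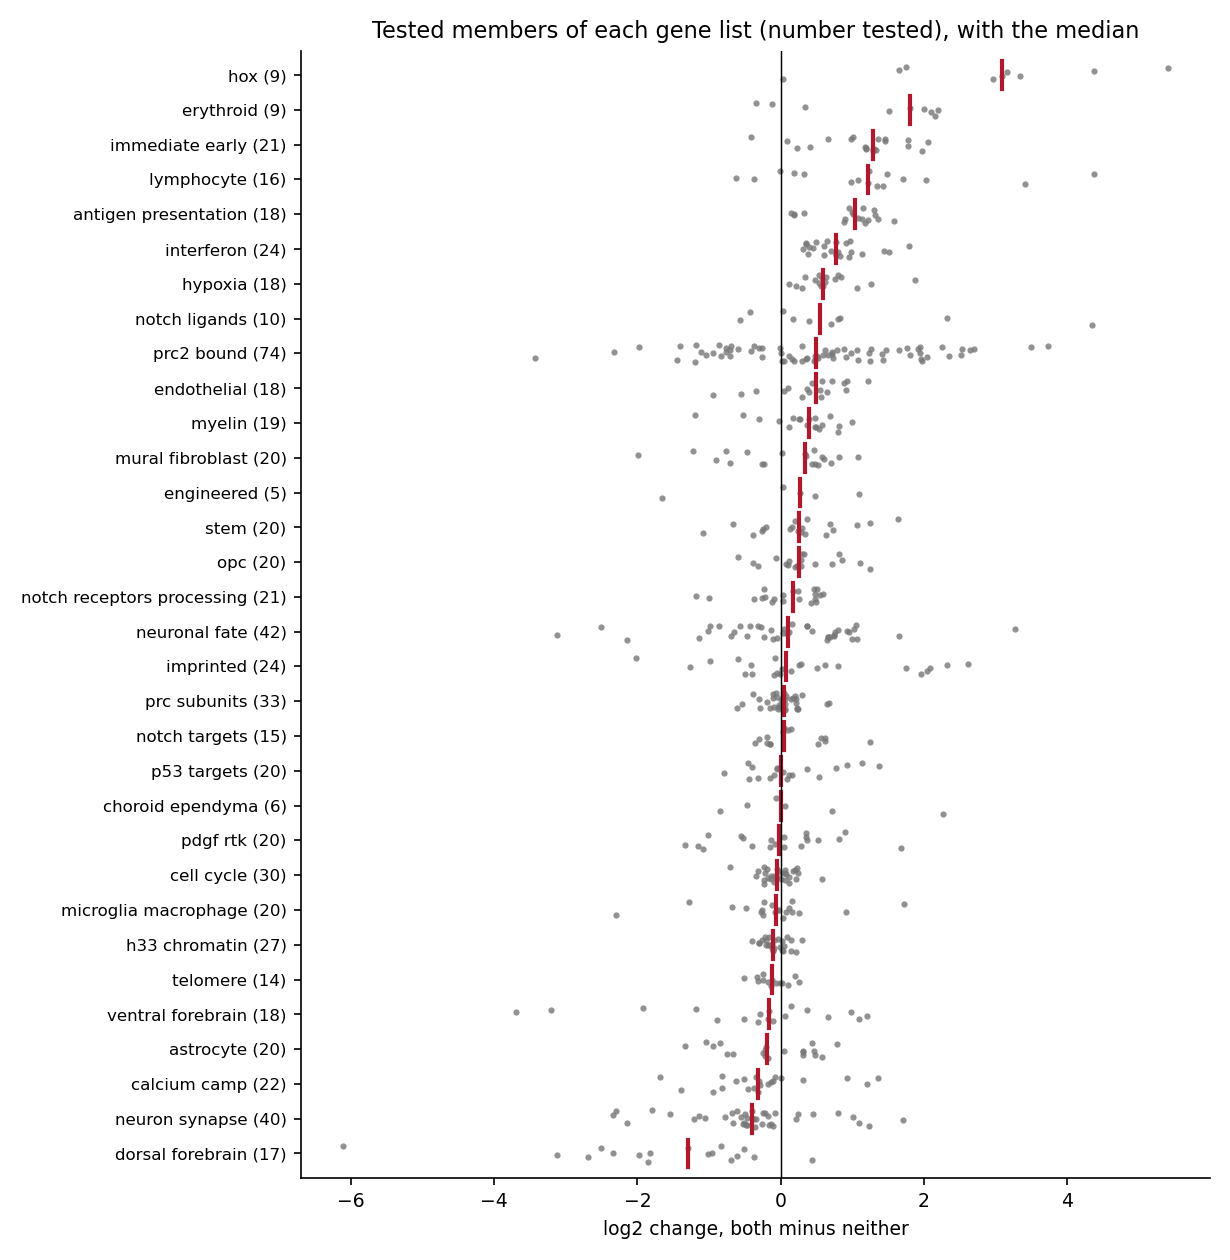
Log2 difference of both changes minus neither (horizontal axis) for each tested member (point) of each list of genes (row, with the number tested), and the list's median (red bar). The Hox list has the highest median at 3.09 over 9 of 39 members, and the dorsal forebrain list the lowest at -1.29 over 17 of 18.

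Immediate early genes respond within minutes to dissection, cell stress and other stimuli, and their levels can follow how tissue was handled. Of 21 immediate early genes, 20 were positive with a median of 1.28, and 4 had an unadjusted p under 0.05, all higher (2.72% of all genes tested). Jund was at 2436, 3454, 1637 and 3623 against 1564, 711, 1576 and 1072, a log2 difference of 1.18 (SE 0.35; limma adjusted p = 0.996), and did not overlap. Fos was at 6154, 10752, 2034 and 17782 against 3173, 1858, 701 and 4176, a log2 difference of 1.78 (SE 0.74), and overlapped in replicate 3 with both changes. The summed level of the 21 was 57561, 108544, 36975 and 97449 with both changes and 29437, 28862, 22782 and 62794 with neither. All 18 hypoxia and glycolysis genes were positive with a median of 0.59, led by Ero1l at 1.07 (SE 0.35) and Adm at 1.88 (SE 0.74). Of the 18, 2 had an unadjusted p under 0.05, both higher (2.72% of all genes tested). All 24 interferon-stimulated genes were positive with a median of 0.77 and all 18 antigen presentation genes with a median of 1.04. Of these, 1 and 0 had an unadjusted p under 0.05. The summed level of each of these lists overlapped between the groups. Hypoxia genes ran from 51456 to 138352 with both changes and from 31628 to 89224 with neither. Interferon-stimulated genes ran from 10803 to 46393 and from 6312 to 41147, and antigen presentation genes from 68927 to 252290 and from 25882 to 230517. Over all genes tested 49.2% were positive. Limma called 0 members of these 4 lists, and their part in the other differences was not tested.

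Markers of other cell types were also counted. The 20 microglia and macrophage genes had a median of -0.07 with 8 positive, and 0.41 with 16 positive without the 2 libraries rich in cortex transcripts. Mrc1, a macrophage receptor, was at 40.7, 43.5, 61.9 and 149 against 127, 328, 509 and 475, a log2 difference of -2.30 (SE 0.58; limma adjusted p = 0.927). The 18 endothelial genes had a median of 0.49 with 15 positive, and 0.96 with 16 positive without those 2. The 20 mural and fibroblast genes gave 0.34 with 12 positive, and 0.62 with 14 positive without them. The 20 astrocyte genes gave -0.19 with 9 positive, and 0.38 with 12 positive without them, and Fgfr3 among them was at 448, 1342, 1283 and 1283 against 1695, 2763, 6404 and 1347 without overlap, a log2 difference of -1.34 (SE 0.54). The 20 oligodendrocyte progenitor genes gave 0.25 with 16 positive, and -0.69 with 5 positive without the 2 libraries rich in cortex transcripts. The 30 cell cycle genes gave -0.04 with 14 positive, and -0.43 with 2 positive without those 2. Ttr, which defines choroid plexus, was at 0 to 559.

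The tumours with 1 change each allowed a test of whether the difference of both changes against neither departed from the sum of the single changes. In the fit of all 15 libraries, limma called 0 of 17776 genes for this interaction, with 365 (2.05%) at an unadjusted p under 0.05 and a smallest adjusted p of 0.9996. The edgeR test also called 0, with 830 at an unadjusted p under 0.05, and DESeq2 called 12 (8 positive, 4 negative) with 1158. Adcy8, a neuronal adenylyl cyclase, had the second smallest limma p, with an interaction of 3.55 (SE 0.83) on the log2 scale, and Ccdc150 the smallest at -3.04 (SE 0.69). Xk, Col5a1 and Ssc5d followed at 1.91, -2.01 and -2.85. DESeq2 called Adcy8, Ccdc150 and Ssc5d, and also Apob, Syt1, Gm13394, Nrsn2, Mobp, Mrap2, Trhde, Kl and Tfap2a. The interaction was -0.76 (SE 0.91) for Selenov, -0.77 (SE 1.22) for Dll3 and -0.53 (SE 0.45) for Hes1.

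Scaled over all 15 libraries, the mean of Selenov was 14.1 with neither change, 20.2 with H3.3G34R alone, 816 with Atrx floxed alone and 760.3 with both. Dll3 had means of 1812, 1875, 20888 and 22783 in the same order, and Tdpx-ps1 of 3.09, 4.03, 116 and 96.0. Gm11942 was at 513 and 614 in the Atrx-intact groups and at 4.22 and 7.07 in the floxed ones. Gm13394 was at 2.33 and 289 in the intact groups, the latter from libraries at 127, 3.46 and 738, and at 1934 and 2302 in the floxed ones. For these 5 genes the level in each of the 8 floxed libraries lay beyond that in each of the 7 intact ones. Of the 77 genes called in the authors' deposited table, the same split held for 8 higher genes (Dll3, Eid2, Fbl, Gm13394, Gm35850, Gm45011, Selenov and Tdpx-ps1) and 6 lower ones (Atrx, Csf2ra, Gm11942, Gm12070, Gm4691 and Gm5141). Those 77 were called on 8 of these 15 libraries, so the split was in part built in by that choice. Its share over all genes was not counted, and these counts are a description. Hes1 did not split this way, with means of 632, 1256, 1091 and 1459 in the same order of groups.

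A comparison of Atrx floxed with H3.3WT against Atrx intact with H3.3G34R shares no library with the 8 above, and it was added after the data were seen. Here the floxed side carried H3.3WT and the intact side H3.3G34R, the reverse of the pairing above. Replicates 2 and 3 of the intact side share the first code of their titles, so they may not be independent. Both also entered the interaction. Limma called 4 of 17590 genes (0.0227%), with 589 at an unadjusted p under 0.05. Dll3 was higher at 3.42 (SE 0.30; limma adjusted p = 0.0256) and Selenov at 5.32 (SE 0.53; limma adjusted p = 0.0337), and Gm11942 was lower at -6.61 (SE 0.72; limma adjusted p = 0.0493) with Gm3650 at -6.53 (SE 0.60; limma adjusted p = 0.0256). Dll3 stood at 13392, 21976, 17640 and 30544 in the 4 floxed libraries and at 2011, 2011 and 1602 in the 3 intact ones, without overlap. Tdpx-ps1 gave 4.54 (SE 0.58; limma adjusted p = 0.0963) and Gm13394 4.62 (SE 1.44; limma adjusted p = 0.998). Without replicate 1 of the floxed libraries 1 gene was called, Dll3, and without any other single library 0 were called. Of the genes called higher in the authors' deposited table for both changes against neither, 42 were tested here and 33 had the same sign. Of those called lower, 30 were tested and 22 had the same sign. Among the 42 and the 30, 12 and 10 had an unadjusted limma p under 0.05 in either direction, and limma called 2 and 1. The share of all genes with the same sign was not counted, so these counts are a description.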

How the data were processed

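RNA of 15 mouse brain tumours was sequenced as TruSeq mRNA libraries, per the labels' protocols, and the 8 libraries with both changes or neither were compared. Tools were STAR 2.7, HTSeq and DESeq2 on mm10, per the submitters' processing notes. For the annotation, the strand setting and the HTSeq version, the sources used here give nothing. The deposited signal of each library is its read count divided by a size factor that the authors set within each table's libraries. A mean signal, a log2 fold change with its SE, the Wald score and raw and adjusted p-values of each gene were deposited beside it, per the file headers. All library values were whole multiples of what a single read is worth (100% within 0.01), so reads were recovered by division. Where that worth lay near 1, in 2 columns, reads came from the authors' other tables. The library columns therefore held normalized values, and a count test served as an alternative only.

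Limma 3.58.1 (trend and robust options, R 4.3.3, package data.table in version 1.17.8) was fitted to log2 of the deposited signal plus a pseudocount of 1, over 17659 genes with a mean of at least 10, with Benjamini-Hochberg adjustment and a threshold of 0.05. The pseudocount understates differences of low genes. The interaction used all 15 libraries scaled together. Alternatives were pseudocounts of 0.5 and 5, no filter or a mean of at least 50, TMM scaling, edgeR 4.0.16, DESeq2 1.42.0, limma-voom, all 15 libraries in 1 fit, libraries with the same first title code summed, log2 Xist as a covariate, each library left out and the 2 libraries rich in cortex transcripts left out. The fits were tested on simulated data. Gene IDs matched GENCODE vM21 for 54079 of 54232 (99.7%), and pseudogenes were aligned to GENCODE transcripts with blastn 2.17.0. The 32 gene lists and the groups were chosen with earlier results of these data known. Named genes are the engineered genes, up to 12 in each direction with the smallest limma p and no overlap, up to 8 in each direction from the authors' table (predicted genes and pseudogenes left out), up to 4 members of a list, up to 5 of the interaction, and Xist, Snap25 and Mobp. Pseudogenes and other called predicted genes, their parent genes, the Dll3 neighbourhood, the promoters and other list members were chosen after their values were seen. Results that need genes withheld for evaluation were left out.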

Additional observations from a re-analysis of the deposited data

Results flagged for a closer look

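In groups of 4, a value was picked out when its gap to the nearest of the other 3 was a large share of the group's range. This happened in 9 of 90 groups. A chance rate of about 1 in 20 applies to independent, normally distributed values. These groups share libraries, and some of their genes were picked for their values, so that rate is no yardstick here. Among tumours with both changes, replicate 4 held 12848 counts of Ighg2b against 347 to 464 in the others, 3531 of Gm13394 against 1684 to 1869, and 458 of Lhx2 against 641 to 674. Replicate 3 with both changes held 2215 of Gng2 against 1071 to 1131 and 152 of Mmp2 against 307 to 316. Among tumours with neither change, replicate 1 held 2065 of Csf2ra against 1782 to 1808 and 192 of Tlr6 against 140 to 147. Replicate 2 held 1.03 of Xist against 16105 to 35277, and replicate 3 held 40.1 of Strc against 7.18 to 8.05. For Strc, Gm13394, Ighg2b, Csf2ra, Lhx2 and Mmp2 the groups with both changes and with neither did not overlap with these values included.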

How the results depend on the processing

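The number of genes called for both changes against neither was 4, and 2 with a pseudocount of 0.5, a mean of at least 50, edgeR, limma-voom, libraries with the same first title code summed or log2 Xist as a covariate. It was 75 with DESeq2 and 2 to 8 with each library left out. Pseudocount 5, TMM scaling and all 15 libraries in 1 fit gave the same 4, and no filter gave 5. The 6 libraries without cortex-rich ones also gave 4, but these were Gm13394, Gm11942, Mmp2 and Gm5141. There Selenov and Tdpx-ps1 each had a limma adjusted p of 0.174. The interaction gave 0 under each alternative but DESeq2, which gave 12. The added comparison of Atrx floxed with H3.3WT against Atrx intact with H3.3G34R gave 9 without a filter, 0 with edgeR, 88 with DESeq2 and 0 to 1 with each library left out. The cause was not tested. The Atrx log2 difference stayed between -1.95 and -1.42, the lowest without the 2 cortex-rich libraries.

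Of 163 named genes, 9 changed sign under some alternative, none of them called. H3f3a gave -0.005 with DESeq2, -0.128 with Xist as a covariate, -0.13 without the 2 cortex-rich libraries and -0.14 to 0.264 with 1 library left out. Snap25 gave 1.158 with Xist, 1.068 without the cortex-rich libraries and -1.086 to 1.575 with 1 library left out. Mobp gave 0.003 with edgeR, 0.729 with Xist and -2.956 to 1.271 with 1 left out. Aqp1 gave 0.648 without the cortex-rich libraries and -1.299 to 0.373 with 1 left out. Hbb-bt gave -0.066 with edgeR and -0.082 with DESeq2, Rrm2 -0.047 with Xist, and with 1 left out Mcm4 gave -0.7 to 0.102, Bub1b -0.82 to 0.061 and Sox10 -0.053 to 1.326. No paired analysis was possible because the labels give no replicate numbers that tie a tumour of one group to a tumour of the other. Low counts limit Gm13394, Gm11942, Tdpx-ps1 and Selenov in the group where they are lowest.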

Other observations

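Some lists not described above were flat. The 27 genes of H3.3 chaperones, ATRX partners and enzymes of H3K36 and H3K9 had a median log2 difference of -0.10 with 9 positive, and 0 had an unadjusted p under 0.05. The 14 tested shelterin and telomere genes had a median of -0.13 with 4 positive. The 24 imprinted genes had a median of 0.08 with 13 positive, and Dlk1 and Nnat had an unadjusted p under 0.05, both higher (2.72% of all genes tested). The 9 tested haemoglobin and erythroid genes had a median of 1.81 with 7 positive, and 0 had an unadjusted p under 0.05. Their summed level was 21916, 325107, 52126 and 180563 with both changes and 421754, 7615, 8107 and 80925 with neither, so the groups overlapped.

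Among receptor tyrosine kinases of glioma, Erbb3 was at 3650, 8930, 11028 and 7829 with both changes and at 6962, 2013, 572 and 3280 with neither, a log2 difference of 1.68 (SE 0.70; limma adjusted p = 0.999). Fgfr2 was at 401, 376, 591 and 360.3 against 432, 1179, 1504 and 687, a log2 difference of -1.01 (SE 0.40; limma adjusted p = 0.999). Both genes overlapped between the groups.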
